A study of Rattus norvegicus with 6 samples.

Results

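The values described here are those of 10 genes of the amino acid stress response in primary rat VSMCs, namely Atf4, the transcription factor of the response, and 9 genes known as its targets (Ddit3, Ddit4, Trib3, Sesn2, Chac1, Asns, Psat1, Phgdh and Slc7a5). They were taken by gene symbol from a table of 13526 genes, and all 10 were listed there and passed the filter on low values, a mean of at least 1 TPM. VSMCs from the thoracic aorta of wild-type rats were cultured in osteogenic media (OM), which holds 10 mM β-GP and 3.5 mM CaCl2, with 1 μM empagliflozin (OM plus EMPA group, n = 3) or without it (OM group, n = 3). The medium is named here from the treatment protocol in the labels. The titles of all samples abbreviate it as Pi instead, which elsewhere in the study stands for a phosphate medium, and the mismatch could not be settled from the files. Both groups carried the calcifying medium, so an effect of OM itself was not analysed here. Empagliflozin is an inhibitor of the glucose cotransporter SGLT2. Culture lasted 5 days by the sample labels, and the published legend gives a shorter time. Whether the 3 replicates stem from independent cultures or rats is not said, so the p-values describe how these libraries vary, which may be technical variation alone.

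When amino acids run short, when unfolded proteins build up in the endoplasmic reticulum (ER) or under other stresses, kinases phosphorylate the translation factor eIF2. Most protein synthesis then slows, while the Atf4 mRNA is translated more, so that ATF4 protein can rise with little change in its mRNA. ATF4, together with C/EBP family partners, binds C/EBP-ATF response elements in its targets and induces amino acid transporters, enzymes of serine and asparagine synthesis, brakes on the growth kinase complex mTORC1 and, under lasting stress, genes linked to cell death. RNA levels such as those given here do not measure ATF4 protein.

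RefSeq promoters (build GRCr8) were found for all 10 genes, from 250 bases before the start to 50 after it. The C/EBP-ATF response element was searched as TGATGNAA on both strands and was found in the promoters of Trib3 and Chac1, 2 of the 10 genes, against 3.98% of all 33469 promoters in the table. The matches are shown with their surroundings because they are the letters ATF4 is known to read. Capitals mark the match, which in both promoters lies on the opposite strand of the gene.
Trib3, chr3:161275534-161275584, minus strand, match 21 to 14 bases before the start: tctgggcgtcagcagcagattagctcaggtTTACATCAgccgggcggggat
Chac1, chr3:126795934-126796001, plus strand, match 167 to 160 bases before the start: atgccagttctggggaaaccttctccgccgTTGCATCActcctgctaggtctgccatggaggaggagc
The ER stress response element, CCAAT and CCACG with 9 bases between them, searched on both strands, was found in 0 of the 10 promoters and in 0.0657% of all. The window is short, and known elements of several targets lie elsewhere, for example in introns.

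Of the 10 genes, 3 passed an adjusted p of 0.05 in limma. The amino acid transporter Slc7a5 and the mTORC1 inhibitor Ddit4 were higher with empagliflozin, 1.45-fold and 1.35-fold on the log2(TPM + 1) scale, and the stress transcription factor Ddit3 was lower, at 0.870 of the OM level. Atf4 itself, the serine pathway enzymes Phgdh and Psat1, Asns, Trib3, Chac1 and Sesn2 did not pass. Of all 12564 genes tested 6.92% passed, 2.06% higher and 4.86% lower with empagliflozin. The median log2 fold change was 0.06 over the 10 genes and -0.05 over all genes tested. Groups did not overlap for 4 of the 10 genes, against 30.4% of all genes tested.

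TPM are transcript numbers per length, set to a common total that here came to 997954 to 998292 in the 6 libraries. Levels of different genes can therefore be set side by side, but TPM do not tell how many reads lie behind a value. In both groups Atf4 had the highest level of the 10 genes, followed by Ddit3. Asns, Slc7a5, Phgdh, Ddit4 and Psat1 lay together between 40.8 and 86.0 TPM. Sesn2 lay below them, and Trib3 and Chac1 were lowest. In the OM plus EMPA group the ranges of neighbours in this order overlapped from Asns down to Psat1. In the OM group they overlapped from Phgdh down to Ddit4, with Slc7a5 and Psat1 between them, and again for Trib3 and Chac1. Slc7a5 was the fourth in the OM plus EMPA group at 74.6 ± 8.99 TPM (SD, n = 3) and the fifth in the OM group at 51.3 ± 7.76 TPM (SD, n = 3).

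**Figure D1:**
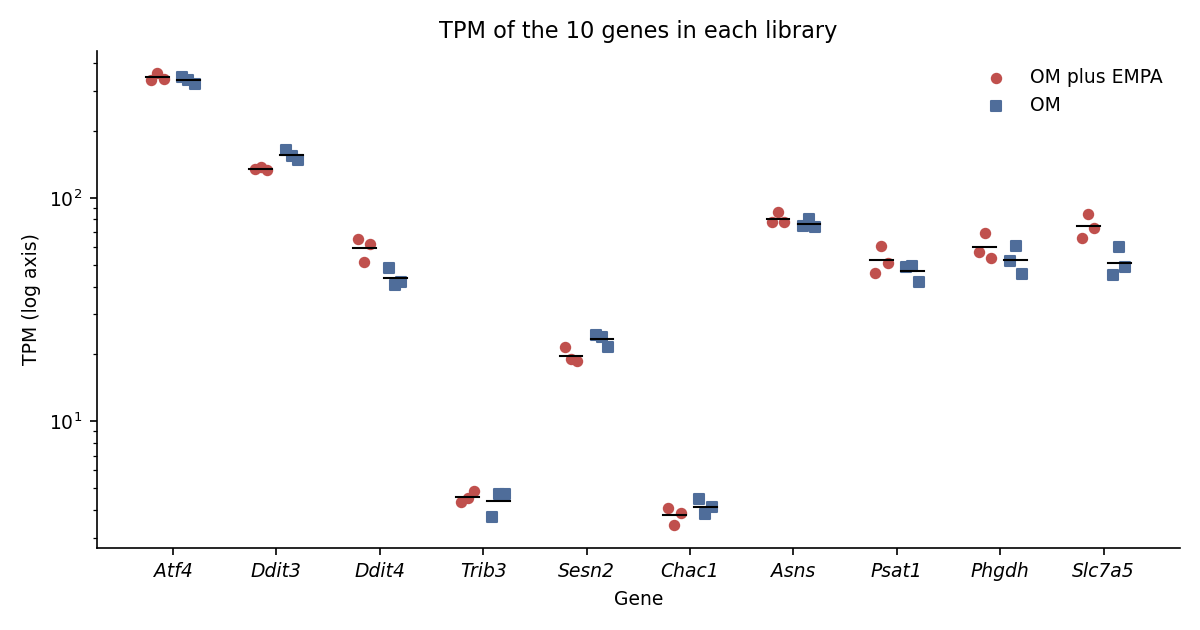
TPM of each gene (log axis) in the 3 OM plus EMPA libraries (red circles) and the 3 OM libraries (blue squares), with a black bar at each group mean. Atf4 lies at 322 to 361 TPM in all 6 libraries, whereas Trib3 and Chac1 lie at 3.41 to 4.85 TPM.

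Atf4 (ENSRNOG00000017801) lies on chromosome 7, 111804183 to 111806446, plus strand, in the coordinates of the authors' table, whose build was not stated. It was at 337, 361 and 340 TPM in the OM plus EMPA libraries and at 348, 337 and 322 TPM in the OM libraries. The groups overlapped, and the highest OM library lay above 2 of the OM plus EMPA libraries. The log2 fold change was 0.04 (SE 0.05, 95% interval -0.06 to 0.15, limma adjusted p = 0.609). The tested genes whose log2(TPM + 1) followed Atf4 most closely over the 6 libraries were Topbp1, Eda, Bod1, Slc35a5 and Pigp, with Pearson r of 0.999, 0.986, 0.985, 0.978 and 0.977. They were picked from all genes as the highest r over 6 libraries of 2 groups, and none of the 10 genes is among them.

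Ddit3 encodes CHOP, a transcription factor that ATF4 induces and that is linked to cell death under lasting ER stress. It was at 134, 137 and 133 TPM in the OM plus EMPA libraries, against 164, 154 and 148 TPM in the OM libraries. Every OM plus EMPA library was below every OM library, and the OM plus EMPA libraries lay close together (SD 1.90 TPM, against 8.45 TPM in the OM group). Ddit3 fell by 0.20 on the log2 scale (SE 0.05, 95% interval -0.31 to -0.09, limma adjusted p = 0.0484). This call is near the threshold. It was lost without any 1 library (adjusted p of 0.0620 to 0.131 from limma) and under median-ratio scaling of the libraries (log2 fold change -0.14, limma adjusted p = 0.135). In the authors' table the last 60 bases of Ddit3 (chromosome 7, 63115302 to 63121201, plus strand) overlap the end of Mars1 on the opposite strand, and no source used here says whether reads were counted by strand. Mars1, a tRNA synthetase, was at 54.5, 61.4 and 57.2 TPM in the OM plus EMPA libraries and at 58.8, 58.0 and 61.5 TPM in the OM libraries, and the groups overlapped. Its part in the Ddit3 value was not tested.

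Trib3 encodes a pseudokinase that ATF4 and CHOP induce and that restrains ATF4 in return. It was at 4.32, 4.51 and 4.85 TPM in the OM plus EMPA libraries and at 3.73, 4.69 and 4.71 TPM in the OM libraries. The groups overlapped, and OM replicate 1 was the lowest of the 6. The log2 fold change was 0.05 (95% interval -0.20 to 0.31, limma adjusted p = 0.805) and turned to -0.037 without OM replicate 1. Chac1, an enzyme that degrades glutathione, was at 4.09, 3.41 and 3.86 TPM in the OM plus EMPA libraries and at 4.46, 3.82 and 4.12 TPM in the OM libraries. These groups overlapped too, with a log2 fold change of -0.10 (95% interval -0.34 to 0.14, limma adjusted p = 0.593). Both genes, the holders of a match to the response element, thus lay at low levels and had intervals that ran from negative to positive.

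Ddit4 and Sesn2 both encode inhibitors of mTORC1, the first acting through the TSC complex and the second as a sensor of leucine. Ddit4 (ENSRNOG00000057078) lies on chromosome 20, 27891998 to 27894105, minus strand. It was at 65.5, 51.5 and 62.1 TPM in the OM plus EMPA libraries, against 48.7, 40.8 and 42.2 TPM in the OM libraries. The groups did not overlap, although OM plus EMPA replicate 2 was within 3 TPM of OM replicate 1. Ddit4 rose by 0.43 on the log2 scale (SE 0.10, 95% interval 0.20 to 0.66, limma adjusted p = 0.0443). With 1 library left out it passed in 1 of 6 fits, the one without OM plus EMPA replicate 2 (limma adjusted p = 0.0297), and in the others the adjusted p was 0.0512 to 0.127. Sesn2 was at 21.5, 19.0 and 18.5 TPM in the OM plus EMPA libraries, against 24.3, 23.8 and 21.5 TPM in the OM libraries. Its groups did not overlap by a margin of 0.05 TPM, and the log2 fold change of -0.23 (SE 0.08, 95% interval -0.41 to -0.05, limma adjusted p = 0.122) did not pass over all genes. The ratio of Ddit4 to Sesn2 in the same library was 3.05, 2.71 and 3.36 in the OM plus EMPA group, against 2.0, 1.72 and 1.96 in the OM group, and the groups did not overlap. This difference was 0.68 on the log2 scale (SE 0.11). Every OM plus EMPA library was above every OM library for Ddit4 and below for Sesn2, so this ratio had to separate the groups. The exact 2-sided permutation test over the 6 libraries could therefore only give p = 0.1, the smallest that 3 against 3 allows. It adds nothing to the values of the single genes.

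Asns makes asparagine, and Phgdh and Psat1 catalyse the first steps of serine synthesis from a glycolytic intermediate. Asns was at 77.6, 86.0 and 77.9 TPM in the OM plus EMPA libraries and at 74.9, 80.6 and 74.0 TPM in the OM libraries. Phgdh was at 57.1, 69.4 and 53.7 TPM in the OM plus EMPA libraries and at 52.4, 60.9 and 45.4 TPM in the OM libraries. Psat1 was at 45.9, 60.9 and 50.8 TPM in the OM plus EMPA libraries and at 48.9, 49.4 and 42.0 TPM in the OM libraries. The groups overlapped for each of these enzymes, and the replicate numbered 2 was highest in both groups for all 3. The log2 fold changes were 0.07 for Asns (95% interval -0.06 to 0.20, limma adjusted p = 0.483), 0.18 for Phgdh (95% interval -0.10 to 0.47, adjusted p = 0.408) and 0.16 for Psat1 (95% interval -0.09 to 0.41, adjusted p = 0.413). Without OM plus EMPA replicate 2 they were 0.02 for Asns, 0.08 for Phgdh and 0.05 for Psat1. The highest values with 1 library left out were 0.11 for Asns and 0.29 for Phgdh, both without OM replicate 2, and 0.25 for Psat1 without OM plus EMPA replicate 1, and none of these passed.

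Slc7a5, also called LAT1, imports leucine and other large neutral amino acids as a dimer with the Slc3a2 protein. The gene (ENSRNOG00000018824) lies on chromosome 19, 49935220 to 49963823, minus strand. It was at 66.4, 84.2 and 73.3 TPM in the OM plus EMPA libraries, against 44.9, 59.9 and 49.0 TPM in the OM libraries. Every OM plus EMPA library was above every OM library, and again replicate 2 was highest in each group. Slc7a5 rose by 0.54 on the log2 scale (SE 0.12, 95% interval 0.26 to 0.81, limma adjusted p = 0.0378). With 1 library left out it passed without OM plus EMPA replicate 1 (limma adjusted p = 0.0492) and without OM replicate 2 (adjusted p = 0.0199), and in the other 4 fits the adjusted p was 0.0855 to 0.111. The partner Slc3a2 had 179, 194 and 181 TPM in the OM plus EMPA libraries, against 169, 171 and 162 TPM in the OM libraries, a log2 fold change of 0.14 that did not pass (limma adjusted p = 0.121). Slc7a5 stood at 0.371, 0.433 and 0.406 of Slc3a2 in the OM plus EMPA libraries, against 0.266, 0.350 and 0.301 in the OM libraries. The groups did not overlap in this ratio either (difference 0.41 on the log2 scale, SE 0.13, exact 2-sided permutation p = 0.1, the smallest possible).

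**Figure D2:**
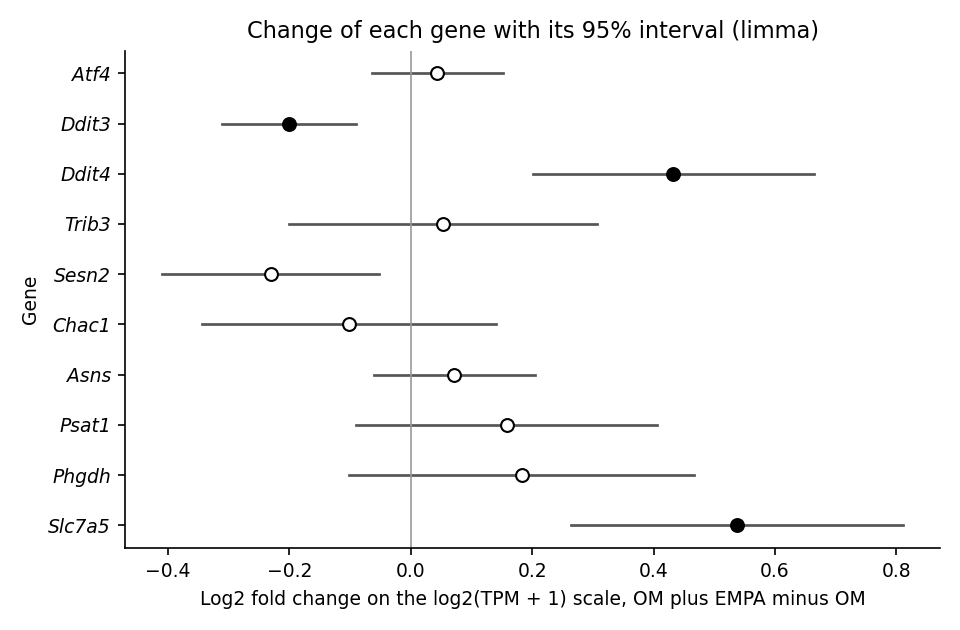
Difference in log2(TPM + 1) between the OM plus EMPA and OM groups for each gene (horizontal axis), with the 95% interval that limma gave. Filled symbols mark genes that passed an adjusted p of 0.05, as for Slc7a5 (0.54), Ddit4 (0.43) and Ddit3 (-0.20), and the interval of Atf4 runs from -0.06 to 0.15.

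A ratio of TPM within a library does not depend on how libraries are scaled. Relative to Atf4, Ddit3 was at 0.398, 0.379 and 0.392 in the OM plus EMPA libraries, against 0.473, 0.457 and 0.458 in the OM libraries, a log2 difference of -0.25 (SE 0.03). Sesn2 was at 0.0637, 0.0526 and 0.0544 of Atf4 in the OM plus EMPA libraries, against 0.0700, 0.0705 and 0.0668 in the OM libraries. Both lay lower relative to Atf4 in every library with empagliflozin. Slc7a5 was at 0.197, 0.233 and 0.216 of Atf4 in the OM plus EMPA libraries, against 0.129, 0.178 and 0.152 in the OM libraries, and Ddit4 was at 0.194, 0.143 and 0.183 in the OM plus EMPA libraries, against 0.140, 0.121 and 0.131 in the OM libraries. Both lay higher relative to Atf4 in every library with empagliflozin. For these 4 of the 9 genes the groups did not overlap, against 30.2% of all other genes tested when set against Atf4 in the same way. Each exact 2-sided permutation test gave p = 0.1, the smallest possible. The same 4 genes did not overlap in their own TPM either, while Atf4 itself overlapped. These ratios thus largely repeat the values of the single genes. For the other 5 genes the ratios overlapped between the groups, with log2 differences of -0.17 for Chac1 to 0.14 for Phgdh.

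**Figure D3:**
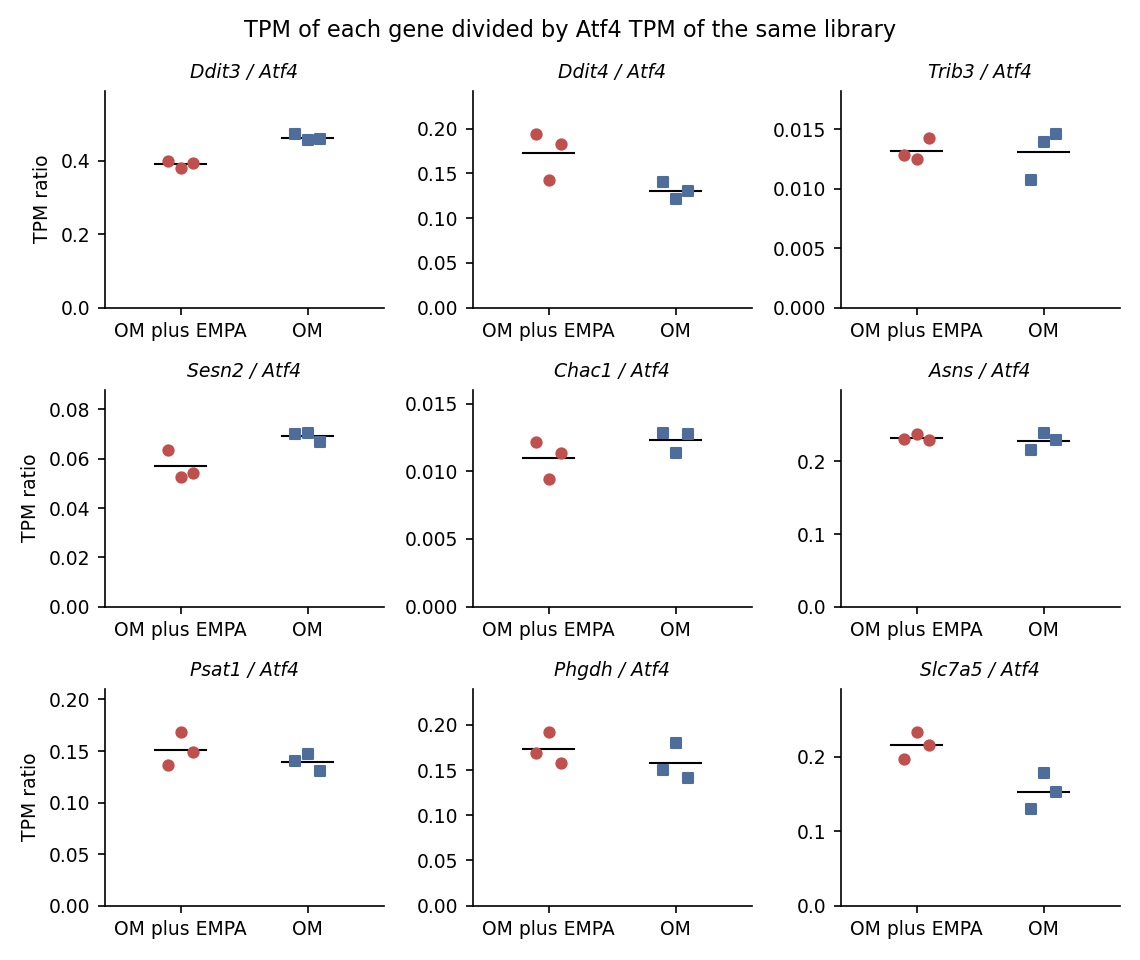
TPM of 9 genes divided by the Atf4 TPM of the same library, in the 3 OM plus EMPA libraries (left in each panel) and the 3 OM libraries (right), with a black bar at each mean and axes starting at 0. Ddit3 lies at 0.379 to 0.398 with empagliflozin and at 0.457 to 0.473 in the OM group, while Asns and Trib3 overlap.

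Other genes of the pathway were taken from 9 lists by role, which together held 105 tested genes besides the 10. Of these 4 were higher and 6 lower, 9.52% against 6.92% of all genes tested, with a median log2 fold change of -0.01. Among 16 tested genes of the eIF2 kinases and the eIF2 machinery, which act above ATF4, 0 rose and 1 fell, Eif2ak2. It encodes PKR, the eIF2 kinase that senses double-stranded RNA and is itself induced by interferon. Eif2ak2 was at 90.2, 90.1 and 91.5 TPM in the OM plus EMPA libraries, against 127, 117 and 115 TPM in the OM libraries (log2 fold change -0.40, SE 0.05, limma adjusted p = 0.00524), and it stayed lower without any 1 library. Nck1, Eif2ak1, Eif2s1 and Ppp1r15a, the last a phosphatase subunit that ends eIF2 phosphorylation, had log2 fold changes of -0.21, -0.21, -0.17 and -0.40 and did not pass. The median log2 fold change of this list was -0.08, against -0.05 over all genes tested. Under median-ratio scaling it was -0.02 for the list and -0.0005 for all genes tested. Eif2s3, Cebpg, Nupr1, Batf3, Cbs and Fgf21, also on the lists, had no values under these symbols, so they were not analysed here. Slc38a1, Slc7a8 and Adm2 did not pass the filter on low values.

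Of 5 tested transcription factors that act with ATF4 or beside it, 1 fell. This was Nfe2l2, which encodes NRF2, the regulator of antioxidant genes, at 170, 168 and 182 TPM in the OM plus EMPA libraries against 210, 207 and 202 TPM in the OM libraries (log2 fold change -0.25, SE 0.04, limma adjusted p = 0.0173). It passed without OM plus EMPA replicate 3 and when OM replicate 2 was left out, and not without any of the other 4 libraries (adjusted p up to 0.0632). The ATF4 partner Cebpb had a log2 fold change of 0.26 (limma adjusted p = 0.0964), which passed under median-ratio scaling (0.32, adjusted p = 0.0493). Atf5, the closest relative of Atf4, had a log2 fold change of 0.13, Jdp2 of 0.05 and Atf3, at 1.61 to 3.52 TPM in all libraries, of -0.20, and none of these passed. Those of Jdp2 and Atf3 changed sign with 1 library left out.

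Of 15 tested genes of amino acid synthesis and folate metabolism, 0 rose and 1 fell. Glul, which makes glutamine from glutamate, was at 51.5, 44.7 and 52.7 TPM in the OM plus EMPA libraries, against 71.2, 65.9 and 69.1 TPM in the OM libraries (log2 fold change -0.46, SE 0.07, limma adjusted p = 0.0103), and the call held without any 1 library. Cth, which makes cysteine, and the proline enzymes Pycr1 and Aldh18a1 had log2 fold changes of 0.24, 0.24 and 0.15, and the mitochondrial folate enzyme Aldh1l2 had 0.21. None of these passed. Of 11 tested amino acid transporters, 1 rose and 0 fell. This was Slc1a4, a transporter of serine, alanine and cysteine, at 37.2, 39.0 and 38.4 TPM in the OM plus EMPA libraries against 28.5, 31.0 and 28.3 TPM in the OM libraries (log2 fold change 0.37, SE 0.05, limma adjusted p = 0.00955). It also kept its call without any 1 library. Slc6a9, Slc1a5 and Slc7a11, carriers of glycine, glutamine and cystine, had log2 fold changes of -0.14, -0.11 and -0.24 and did not pass.

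The tRNA synthetases, which load amino acids onto tRNA, are split here into those known as ATF4 targets, a list that also holds the tRNA exporter Xpot (log2 fold change 0.01, not called), and the other cytosolic ones. Of 13 tested genes of the first list 0 rose and 1, Cars, fell (log2 fold change -0.27, SE 0.05, limma adjusted p = 0.0233), with a median of -0.04 that was 0.01 under median-ratio scaling. Of 8 tested genes of the second list 0 rose and 1, Kars, fell (-0.25, SE 0.04, limma adjusted p = 0.0151), with a median of -0.14, and of -0.08 under median-ratio scaling. Cars was at 35.7, 34.9 and 33.4 TPM in the OM plus EMPA libraries, against 41.7, 40.7 and 43.5 TPM in the OM libraries. Each call was lost in 4 of the 6 fits with 1 library left out (adjusted p up to 0.0842 for Cars and 0.0544 for Kars), and Cars also under median-ratio scaling (adjusted p = 0.0520). Cars passed without OM plus EMPA replicate 1 and when OM replicate 2 was left out, and Kars without OM plus EMPA replicate 2 and when OM replicate 2 was left out. Aars1, an ATF4 target, had a log2 fold change of -0.16 (adjusted p = 0.0507), and Rars1 and Farsa of the second list had -0.16 and -0.18.

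Among 12 tested stress and feedback targets 2 rose and 1 fell. Vldlr, a lipoprotein receptor induced by ATF4 under ER stress, was at 62.5, 79.0 and 69.5 TPM in the OM plus EMPA libraries, against 40.7, 53.3 and 40.7 TPM in the OM libraries (log2 fold change 0.64, SE 0.12, limma adjusted p = 0.0231). The growth factor Vegfa was at 149, 144 and 145 TPM in the OM plus EMPA libraries, against 124, 124 and 119 TPM in the OM libraries (0.25, SE 0.04, adjusted p = 0.0122). Tnfrsf10b, a death receptor that CHOP induces, fell, at 16.9, 16.5 and 18.4 TPM in the OM plus EMPA libraries against 20.9, 20.6 and 20.8 TPM in the OM libraries (-0.26, SE 0.06, adjusted p = 0.0485). Trib3, which CHOP also induces, had a log2 fold change of 0.05 and did not pass, and a link of Tnfrsf10b to Ddit3 was not tested. Vldlr passed without OM plus EMPA replicate 1 and when OM replicate 2 was left out and not without any of the other 4 libraries (adjusted p up to 0.0771). Vegfa was lost without OM replicate 3 (adjusted p = 0.0513), and Tnfrsf10b was lost without any 1 library (up to 0.147) and under median-ratio scaling (0.0988). The secreted stress factor Gdf15 had 9.26, 4.47 and 6.03 TPM in the OM plus EMPA libraries and 11.1, 9.36 and 9.30 TPM in the OM libraries. Its log2 fold change of -0.57 did not pass (adjusted p = 0.153), and it passed without OM plus EMPA replicate 1 (-0.81, adjusted p = 0.0340), the library that stood highest in its group, and was -0.36 (adjusted p = 0.331) without OM plus EMPA replicate 2, the lowest. Gadd45a, a growth arrest gene, had a log2 fold change of 0.22 (adjusted p = 0.0590) and passed under median-ratio scaling (0.28, adjusted p = 0.0258).

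Of 7 tested paralogs of the 10 genes, 1 rose and 0 fell, with a median log2 fold change of 0.26. Ddit4l, the paralog of Ddit4 and likewise an inhibitor of mTORC1, was at 21.3, 19.0 and 15.9 TPM in the OM plus EMPA libraries, against 14.7, 10.4 and 11.4 TPM in the OM libraries (log2 fold change 0.59, SE 0.14, limma adjusted p = 0.0484). The groups did not overlap, and the call was lost in 4 of 6 fits with 1 library left out (adjusted p up to 0.141), holding without OM plus EMPA replicate 3 and when OM replicate 1 was left out. Sesn1 and Sesn3, the paralogs of Sesn2, had log2 fold changes of 0.36 and 0.30 with adjusted p of 0.110 and 0.226, against -0.23 for Sesn2. Trib2 and Trib1 had 0.26 and 0.19. None of these passed.

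Unfolded proteins also act through ATF6 and XBP1, which induce chaperones and folding enzymes. Of 19 tested genes of these branches 0 passed in limma, with a median log2 fold change of 0.04. The 3 with the smallest p were Pdia4, Edem1 and Pdia6, with log2 fold changes of 0.15, 0.14 and 0.10. Pdia4 was at 360, 364 and 368 TPM in the OM plus EMPA libraries, against 335, 324 and 327 TPM in the OM libraries (limma adjusted p = 0.0527). Under median-ratio scaling these 3 passed as higher. Hyou1 and Sel1l had log2 fold changes of 0.11 and 0.09.

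**Figure D4:**
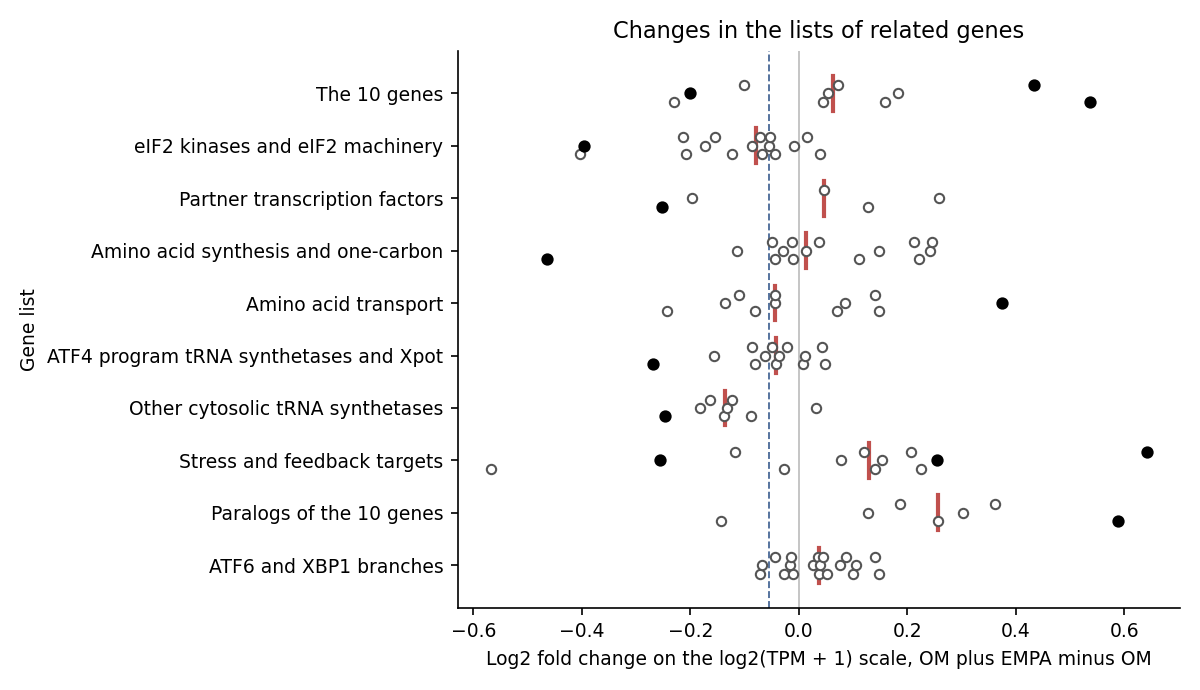
Difference in log2(TPM + 1) between the OM plus EMPA and OM groups (horizontal axis) for the 10 genes and for every tested gene of the 9 related lists, 1 point a gene. Filled symbols mark genes that passed an adjusted p of 0.05, red bars are list medians, and the dashed line is the median of all genes tested at -0.05, with Vldlr at 0.64 the rightmost point and Gdf15 at -0.57 the leftmost.

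Over all genes tested 259 were higher and 611 lower, so 29.8% of calls were higher, and under median-ratio scaling 390 were higher and 381 lower, 50.6% of calls. Transcripts of the mitochondrial genome took 10.3 to 10.9% of TPM in the OM plus EMPA libraries, against 8.0 to 9.69% in the OM libraries, and they are part of the total to which all other genes are scaled. Smooth muscle markers were present, and of 6 tested 4 rose with empagliflozin, Cnn1, Lmod1, Acta2 and Tagln (log2 fold changes 0.77, 0.90, 0.70 and 0.43). Smtn (0.15) and Myh11 (-0.17), the smooth muscle myosin, did not pass. The markers, of which Tagln and Acta2 made up most, had summed levels of 2478 to 2924 TPM in the OM plus EMPA libraries against 1756 to 2157 TPM in the OM libraries. Fibroblast markers summed to 4637 to 5409 TPM in the OM plus EMPA libraries, against 6093 to 6937 TPM in the OM libraries, and of 4 tested Dcn, which made up most of the sum, and Pdgfra fell (log2 fold changes -0.39 and -0.35), while Lum (-0.09) and Pi16 (0.26) did not pass. Of 9 macrophage and leukocyte markers 3 were tested. Cd68 fell by 0.83 on the log2 scale, while Cd14 (-0.15) and Fcer1g (-0.004) did not pass. Ptprc, Itgam, Csf1r, Adgre1, Lyz2 and Cd163 had no values under these symbols, so they were not analysed here. The 3 tested markers, of which Fcer1g made up most, summed to 145 to 152 TPM in the OM plus EMPA libraries, against 153 to 162 TPM in the OM libraries. The 6 endothelial markers and the smooth muscle marker Des had no values under their symbols, so they were not analysed here. The fibroblast marker Dpt did not pass the filter on low values. In bulk RNA, fewer cells of a type and less RNA per cell cannot be told apart, and the part of these differences in the values of the 10 genes was not tested.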

How the data were processed

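The authors sequenced RNA of 6 VSMC samples with paired reads. Tools listed in the submitters' processing notes, without a role, are DESeq2, fastp, RSEM and HISAT2 (2.0.5). A genome build was not given in the sources used here. The authors deposited TPM of 13526 genes per library, estimated before deposit. The deposited table also holds the log2 fold changes and p-values of the authors' own comparison, which were not used, and a second table repeats some of its rows. TPM keep no depth, so no precision by depth can be given. Groups were compared with limma 3.58.1 (R 4.3.3) on log2(TPM + 1) over the 12564 genes whose mean reached 1 TPM, with group as the only term, a variance trend, 4 residual and 3.8 prior degrees of freedom, and Benjamini-Hochberg adjustment over all of them. The threshold was an adjusted p of 0.05. On this scale a fold change understates that of low genes. Exact permutation tests were 2-sided.

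The genes and lists were chosen with earlier results of these data known. The text names the 10 genes, up to 5 genes of each list with the smallest p, the 5 genes most like Atf4, and cell type markers. Mars1 was added for its overlap with Ddit3. Alternatives were a pseudocount of 0.1, no filter, the replicate number as a block, median-ratio scaling, rescaling without mitochondrial genes, no variance trend, an adjusted p of 0.1 and each library left out. The fit was also run on simulated data with known changes. It recovered 32% of changes of 0.3 on the log2 scale, 74% of 0.585 and 98% of 1, so small changes can be missed. Python 3.11.15 with pandas 2.3.3, numpy 2.4.6 and matplotlib 3.10.9 was also used. Promoters are RefSeq, build GRCr8.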

Additional observations from a re-analysis of the deposited data

How the results depend on the processing

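Without a replicate block, the calls among the 10 genes lie close to the threshold. They numbered 3 (2 higher, 1 lower) and were 0 without the variance trend, 2 under median-ratio scaling or rescaling without mitochondrial genes (2 higher, 0 lower), and 3 with a pseudocount of 0.1, without the filter or at an adjusted p of 0.1. With 1 library left out 0 to 1 passed, 0 to 1 higher and 0 lower. Of the 10 log2 fold changes, that of Trib3 changed sign and ran from -0.037 without OM replicate 1 to 0.0988 without OM replicate 3. Atf3 ran from -0.347 to 0.0489, being positive without OM plus EMPA replicate 2. Jdp2 ran from -0.0397 to 0.105, and was -0.0397 without OM plus EMPA replicate 2 and -0.00517 when OM replicate 1 was left out.

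Samples of the groups share replicate numbers. The deviations of same-numbered samples correlated at 0.0979, 0.162 and 0.0575, and each sample correlated best with its own number, which is a hint from the data and not the design, so the numbers were not taken to pair the samples. With the replicate block 4 of the 10 genes passed, Phgdh being the addition (adjusted p = 0.0466 from limma). In that fit the limma adjusted p was 0.00149 for Slc7a5, 0.00687 for Ddit4 and 0.0330 for Ddit3. These values hold only if the numbers mark pairs, which is not known. Over all genes 449 were higher and 951 lower, and 10 and 10 in the related lists. The additions there were Cebpb, Cth, Aldh1l2, Gadd45a, Sesn3 and Pdia4 (higher) and Nck1, Eif2ak1, Aars1 and Farsa (lower).

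Of all genes 259 were higher and 611 lower. These counts were 390 and 381 under median-ratio scaling, 154 and 366 without the variance trend, 460 and 1090 at an adjusted p of 0.1, and 80 to 216 and 245 to 438 with 1 library left out, fewest without OM plus EMPA replicate 2. The related lists had 4 higher and 6 lower genes, 9 higher under median-ratio scaling, 2 and 2 without the variance trend, and 1 to 3 and 2 to 6 with 1 library left out. The cause of these differences was not tested. TPM keep no depth, so what depth limits cannot be given.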
